A study of Mus musculus with 9 samples.

Results

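Inhibitory receptors of myeloid cells, the ligand *Cd47* and the SH2 phosphatases SHP-1 (*Ptpn6*) and SHP-2 (*Ptpn11*) were measured by RNA-seq in 3 mouse myeloid cell lines. The members were taken by symbol from the table of counts: 10 of its 54347 genes, namely the receptors *Sirpa*, *Pirb*, *Lilrb4a*, *Cd300a*, *Cd300lf*, *Cd33* and *Siglece*, with *Cd47*, *Ptpn6* and *Ptpn11*. Hox-WT is a hematopoietic progenitor line immortalized with a Hoxb8 fusion protein that estradiol keeps active, and comes from a wild-type mouse. Hox-URE was made in the same way from a UREd/d mouse, in which both alleles lack the URE, an upstream enhancer of *Spi1*, the PU.1 gene. URE-AML (line B22) carries the same deletion and was established from AML blasts. According to the labels, all 3 lines were grown with IL-3, IL-6, SCF and β-estradiol, and no age is given for the mice of origin. Each line had 3 libraries, and each genotype and stage is 1 line, so the tests set differences against the spread between libraries of a line. The labels do not say whether those libraries came from separate cultures.

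Inhibitory receptors of this kind carry short tyrosine motifs (ITIMs) in their cytoplasmic tails. After ligand binding, Src-family kinases phosphorylate the motifs, which then dock the SH2 domains of SHP-1 and SHP-2 or of the lipid phosphatase SHIP-1, and nearby activating receptors are switched off. SIRPa on macrophages and granulocytes reads CD47, the "do not eat me" signal of other cells, PIR-B reads MHC class I, CD300a and CD300lf read lipids of dying cells, and CD33 and Siglec-E read sialic acid. PU.1 is a master regulator of macrophage and granulocyte genes.

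The tail motifs are shown first, because 6 of the 7 receptors held a match. The longest complete coding sequence of each gene in GENCODE M21 (GRCm38) was searched, over its last 120 codons, for a codon of isoleucine, valine, leucine or serine, any codon, a tyrosine codon, any pair of codons, and a codon of isoleucine, valine or leucine. *Sirpa* held 3 matches, *Pirb*, *Lilrb4a*, *Cd300a* and *Cd300lf* held 2 each, and *Siglece* held 1. *Cd33* and *Cd47* held 0 in that stretch. Of 21522 protein-coding genes, 4121 (19.1%) held a match, among them *Ptpn6* and *Ptpn11*, so a match alone is a description and not a working motif. The receptors' matches are in capitals below, with 15 coding bases on each side, read 5′ to 3′ on the coding strand.
Sirpa, first motif: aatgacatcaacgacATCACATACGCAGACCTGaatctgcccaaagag
Sirpa, second motif: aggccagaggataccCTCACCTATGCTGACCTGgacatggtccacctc
Sirpa, last motif: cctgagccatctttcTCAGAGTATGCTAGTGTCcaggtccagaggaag
Pirb, first motif: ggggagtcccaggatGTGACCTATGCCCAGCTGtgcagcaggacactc
Pirb, second motif: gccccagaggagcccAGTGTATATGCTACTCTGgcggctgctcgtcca
Lilrb4a, first motif: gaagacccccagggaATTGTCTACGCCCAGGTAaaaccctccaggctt
Lilrb4a, second motif: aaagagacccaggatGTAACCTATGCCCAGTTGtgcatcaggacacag
Cd300a, first motif: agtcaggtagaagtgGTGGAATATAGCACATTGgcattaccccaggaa
Cd300a, second motif: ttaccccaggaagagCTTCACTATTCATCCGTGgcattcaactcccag
Cd300lf, first motif: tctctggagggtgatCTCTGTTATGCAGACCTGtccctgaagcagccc
Cd300lf, second motif: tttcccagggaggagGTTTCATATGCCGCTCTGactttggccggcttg
Siglece: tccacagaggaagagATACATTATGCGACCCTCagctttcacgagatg

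The activating or paired relatives lacked such a match: *Sirpb1a*, *Pira2*, *Lilr4b* and *Cd300lb* each held 0. Over the whole coding sequence, likeness differed between families. The coding sequence of *Lilrb4a* was 96.0% identical to that of *Lilr4b* over 910 aligned bases, and that of *Pirb* was 96.9% identical to *Pira2* over 1900 aligned bases. *Sirpa* and *Sirpb1a* shared 71.3% over 980 aligned bases, and *Ptpn6* and *Ptpn11* shared 66.8% over 1502. The other pairs aligned only in short stretches, of 39 bases for *Cd300a* and *Cd300lb*, 89 for *Cd300lf* and *Cd300lb*, and 208 for *Cd33* and *Siglece*. Of all 31-base words in the transcripts of *Lilrb4a*, 55.7% also occurred in another gene, and the share was 43.8% for *Pirb*, 7.51% for *Cd300a*, 4.33% for *Cd300lf*, 0.615% for *Cd33* and 0.0392% for *Sirpa*. Reads of *Lilrb4a* and *Pirb* can therefore be split between neighbours, and these 2 genes are uncertain as single genes.

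Hox-WT libraries held 25857565 to 28588718 counts in total, Hox-URE libraries 20879183 to 28300453 and URE-AML libraries 20331064 to 23907360. Levels are given as CPM (counts scaled to library size with TMM factors), and a floor of 3 counts corresponded to 0.104 to 0.153 CPM. Floors and intervals of ratios cover counting error only. *Spi1* was at 2932, 2832 and 2791 counts in Hox-WT, at 1, 1 and 0 in Hox-URE and at 62, 116 and 148 in URE-AML, so both lines with the deletion had less of it than Hox-WT. *Hoxb8* was at 0 counts in all URE-AML libraries. The 5 progenitor markers had a summed level of 1905 to 2198 CPM (Hox-WT), 838 to 1324 CPM (Hox-URE) and 257 to 293 CPM (URE-AML), and all 5 fell from Hox-WT to each of the URE lines, though the call of *Cd34* in Hox-URE was lost without Hox-WT replicate 2 or 3 (edgeR adjusted p = 0.0598 and 0.0642) or without Hox-URE replicate 1 (a log2 fold change of -0.42, under the fold threshold). Of these, *Kit* had means of 174, 43.0 and 96.9 CPM and *Myb* of 299, 167 and 177 CPM in the same order, and *Cd34* was at 1, 0 and 0 counts in URE-AML. The summed CPM of neutrophil markers ranged over 6137 to 9379 (Hox-WT), 3354 to 4578 (Hox-URE) and 11380 to 26290 (URE-AML). Monocyte and macrophage markers summed to 358 to 448, 843 to 948 and 176 to 352 CPM, with *C1qa* at 0 in every library. Mast cell and basophil markers summed to 611 to 933, 1835 to 6552 and 44.2 to 80.3 CPM. In bulk RNA, fewer cells of a kind and less RNA per cell cannot be told apart.

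A gene was called where its edgeR adjusted p over all 13082 tested genes was under 0.05 and its fold change was over 1.5. *Siglece* did not pass the filter on low counts, so 9 of the 10 members were tested. From Hox-WT to Hox-URE, 1 member rose and 5 fell, where 21.3% of all tested genes rose and 15.9% fell. From Hox-WT to URE-AML, 6 rose and 3 fell, where 23.0% of all genes rose and 20.2% fell. From Hox-URE to URE-AML, 5 rose and 0 fell, where 20.4% of all genes rose and 22.4% fell. Of these 5, *Pirb* held 0 counts in Hox-URE and 0, 4 and 4 in URE-AML, and its call was lost in 9 of 19 alternatives. These shares of all genes also apply to the marker counts below. The 2 URE lines were each compared with the same Hox-WT libraries. The median log2 fold change of the 9 members was -5.42, 0.65 and 0.93 in these 3 comparisons, against 0.0002, 0.0017 and 0 over all tested genes. With *Pirb*, which had 0 counts in Hox-URE, set at its bound, the first median was -2.95, and without it, since no bound could be set against Hox-URE for URE-AML, the last was 0.75.

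**Figure D1:**
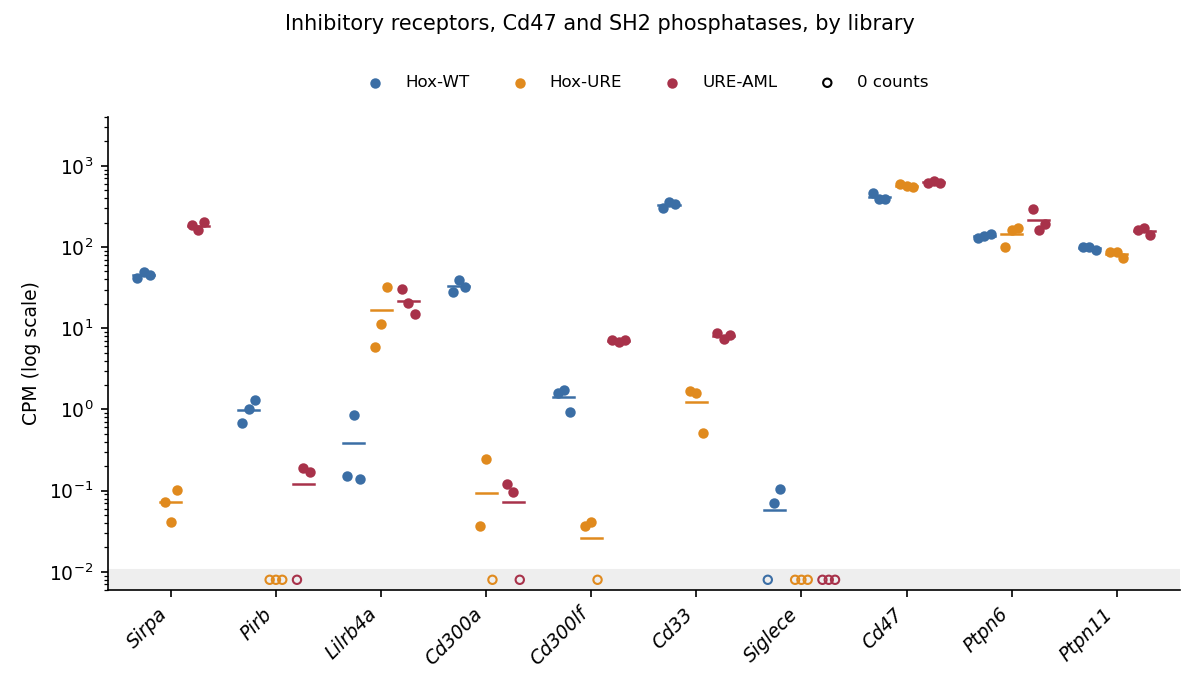
Level of each of the 10 members in each library, in CPM on a log axis. Points are libraries, horizontal lines are means of 3, and open circles in the grey band are libraries at 0 counts. The receptors *Sirpa*, *Cd300a*, *Cd300lf* and *Cd33* spread over several orders of magnitude between lines, while *Cd47*, *Ptpn6* and *Ptpn11* stayed within 72.8 to 659 CPM.

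*Sirpa* (ENSMUSG00000037902, chromosome 2, 129592835 to 129632228 of GRCm38, plus strand) was nearly lost in Hox-URE and raised in URE-AML. Its levels were 41.8, 48.9 and 44.9 CPM in Hox-WT (45.2 ± 3.56, SD, n = 3) and 186, 162 and 202 CPM in URE-AML (183 ± 20.1, SD, n = 3). The Hox-URE libraries held 2, 1 and 2 counts. The 3 lines did not overlap, and the order was URE-AML, Hox-WT, Hox-URE, with each step called. Hox-URE was lower than Hox-WT by a ratio of 644 (95% interval 276 to 1986, edgeR adjusted p = 3.16e-09). From Hox-WT to URE-AML it rose by 2.02 ± 0.11 on the log2 scale (SE, edgeR adjusted p = 1.61e-07), and the ratio of URE-AML to Hox-URE was 2617 (95% interval 1121 to 8062, edgeR adjusted p = 4.89e-10). Its activating relatives had almost no counts: *Sirpb1a* and *Sirpb1c* were at 0 counts in every library, and *Sirpb1b* was at 0 in 7 libraries and at 1 in the remaining URE-AML libraries. *Sirpa* was highest in the line with the highest sum of neutrophil markers, 10 of whose 14 genes rose from Hox-WT to URE-AML and 10 fell from Hox-WT to Hox-URE. The part of cell make-up in the *Sirpa* result was not tested.

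*Cd47* (ENSMUSG00000055447, chromosome 16, 49800533 to 49915010, plus strand), the ligand of SIRPa, was abundant in every line. It stood at 467, 386 and 388 CPM in Hox-WT, 600, 564 and 545 in Hox-URE and 607, 659 and 618 in URE-AML. All 6 libraries of the URE lines were above all 3 of Hox-WT, and the URE-AML libraries were the highest, without overlap. The log2 fold change was 0.46 ± 0.10 in Hox-URE against Hox-WT (SE, edgeR adjusted p = 0.003), which was below the fold threshold, and 0.60 ± 0.10 in URE-AML against Hox-WT (SE, edgeR adjusted p = 0.000464), which was just above it at 1.52-fold. Without Hox-WT replicate 2, Hox-WT replicate 3 or URE-AML replicate 2 the latter value was 0.55, 0.55 or 0.57 and no longer called, nor was it with upper-quartile scaling (0.57) or in a test against 1.5-fold (edgeR glmTreat adjusted p = 0.452). The URE lines stood 0.14 ± 0.10 apart on the log2 scale (SE, edgeR adjusted p = 0.253). Thus the ligand differed by at most 1.52-fold between line means in the fit, while its receptor ranged from 5 counts over the 3 Hox-URE libraries to 183 CPM in URE-AML.

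Of 9 other tested partners of CD47 and SIRPa, 3 rose and 3 fell from Hox-WT to Hox-URE, 3 rose and 2 fell from Hox-WT to URE-AML, and 4 rose and 2 fell from Hox-URE to URE-AML. Over all tested genes, 21.3% rose and 15.9% fell, 23.0% rose and 20.2% fell, and 20.4% rose and 22.4% fell. The median log2 fold change of the partners was -0.16, -0.46 and 0.31. *Thbs1*, the gene of thrombospondin, a secreted ligand of CD47, rose by 3.90 ± 0.65 on the log2 scale in Hox-URE (SE, edgeR adjusted p = 0.000635) and 7.09 ± 0.74 in URE-AML (SE, edgeR adjusted p = 2e-05). In Hox-URE it stood at 283, 71.3 and 43.9 CPM, and without Hox-URE replicate 1 the rise was 2.69 (edgeR adjusted p = 6.99e-05). *Skap2*, an adaptor bound by SIRPa, was lower in both, by log2 fold changes of -2.03 ± 0.15 and -1.72 ± 0.15 (SE, edgeR adjusted p = 2.43e-06 and 4.31e-06). *Itgb3*, an integrin chain that pairs with CD47, was higher in Hox-URE (1.35 ± 0.21) and lower in URE-AML (-1.75 ± 0.22), both as log2 fold changes against Hox-WT with SE.

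*Pirb* (ENSMUSG00000058818, chromosome 7, 3711409 to 3720391, minus strand) was low everywhere and lowest in the URE lines. It held 18, 28 and 38 counts in Hox-WT (0.996 ± 0.320 CPM, SD, n = 3), 0 in all Hox-URE libraries, which allows up to 0.109 to 0.153 CPM per library, and 0, 4 and 4 in URE-AML. Every Hox-WT library was above every library of the URE lines. Against Hox-WT, *Pirb* was lower in Hox-URE by at least 7.73-fold (edgeR adjusted p = 0.00103, floor of 3 counts per library). In URE-AML it was lower by a ratio of 8.68 (95% interval 4.21 to 20.8, edgeR adjusted p = 0.00726). The fitted log2 fold change was -3.04 ± 0.73 (SE), and -2.43 without URE-AML replicate 1, which held 0 counts. URE-AML against Hox-URE passed the threshold (edgeR adjusted p = 0.0402), but the libraries of the lines overlapped at 0 counts, values lay around the floor, no fold is given, and the call was lost on leaving out any Hox-URE library, Hox-WT replicate 2 or 3, or URE-AML replicate 2 or 3, and under glmTreat (edgeR adjusted p = 0.0532 to 0.0978). Summing *Pirb* with 6 similar genes of its locus, chosen after seeing the data, gave 34 to 58 counts for Hox-WT, 0 for Hox-URE and 2 to 6 for URE-AML, the same order as for *Pirb* alone.

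The MHC class I genes, whose products PIR-B reads, were measured through *B2m*, *H2-K1* and *H2-D1*. All 3 rose from Hox-WT to Hox-URE, by log2 fold changes of 1.56 ± 0.39, 0.76 ± 0.28 and 1.46 ± 0.25 (SE, edgeR adjusted p = 0.00711, 0.0401 and 0.0008). The *H2-K1* call was lost without any of 7 of the 9 libraries (edgeR adjusted p = 0.0521 to 0.147), with 0.48 as the smallest value, without Hox-WT replicate 1. In URE-AML against Hox-WT, *H2-K1* was lower (-1.26 ± 0.28, SE, edgeR adjusted p = 0.00294), and the log2 fold changes of *B2m* and *H2-D1* were -0.39 and -0.17, not called. All 3 were lower in URE-AML than in Hox-URE, with a median log2 fold change of -1.95.

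*Lilrb4a* (ENSMUSG00000112148, chromosome 10, 51490956 to 51496611, plus strand), which encodes the inhibitory receptor gp49B, was the only one of the 9 tested members that was called higher in both URE lines. It held 4, 24 and 4 counts in Hox-WT, 163, 271 and 638 in Hox-URE and 752, 433 and 347 in URE-AML. In CPM these were 5.93, 11.2 and 32.6 in Hox-URE and 30.4, 20.6 and 14.9 in URE-AML, against 0.150, 0.857 and 0.138 in Hox-WT. Every library of the URE lines was above every Hox-WT library, and the URE lines overlapped. The log2 fold change was 5.41 ± 0.80 in Hox-URE (SE, edgeR adjusted p = 0.000302) and 5.82 ± 0.81 in URE-AML (SE, edgeR adjusted p = 0.000139). Without Hox-WT replicate 2, which held most of the Hox-WT counts, they were 6.78 and 7.20, and without Hox-URE replicate 3 the former was 4.46. URE-AML against Hox-URE gave 0.42 ± 0.57 (SE, edgeR adjusted p = 0.561), or 1.35 without Hox-URE replicate 3 (edgeR adjusted p = 0.0373).

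The neighbouring genes moved with *Lilrb4a*. *Lilr4b*, its paralogue without a tail match, rose by log2 fold changes of 5.31 ± 0.71 and 5.99 ± 0.72 in Hox-URE and URE-AML against Hox-WT (SE, edgeR adjusted p = 0.000153 and 5.09e-05). *Gm49339*, an annotated gene that spans both, rose by 4.17 ± 0.61 and 5.13 ± 0.63 (SE, edgeR adjusted p = 0.000262 and 5.9e-05). Without Hox-URE replicate 3 the Hox-URE values were 4.46 and 3.32, and both genes then rose from Hox-URE to URE-AML (1.52 and 1.80, edgeR adjusted p = 0.0135 and 0.00475). Summed over these 3 genes, a sum chosen after seeing the data, the locus stood at 5.51, 5.28 and 4.91 CPM in Hox-WT, 31.1, 98.5 and 223 in Hox-URE and 252, 205 and 172 in URE-AML. The Hox-WT sums were even, unlike the counts of *Lilrb4a* alone. Of 7 tested mast cell and basophil markers, 6 rose from Hox-WT to Hox-URE and 5 fell from Hox-WT to URE-AML. In Hox-URE replicates 1, 2 and 3 the mast cell and basophil markers summed to 1835, 4068 and 6552 CPM, the same order of libraries as the locus. In URE-AML they summed to 44.2 to 80.3 CPM. The summed level of 6 megakaryocyte and platelet markers was 6.74 to 15.8 CPM (Hox-WT), 16.5 to 51.0 CPM (Hox-URE) and 1.94 to 5.15 CPM (URE-AML). The part of RNA from such cells in the Hox-URE value was not tested.

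**Figure D2:**
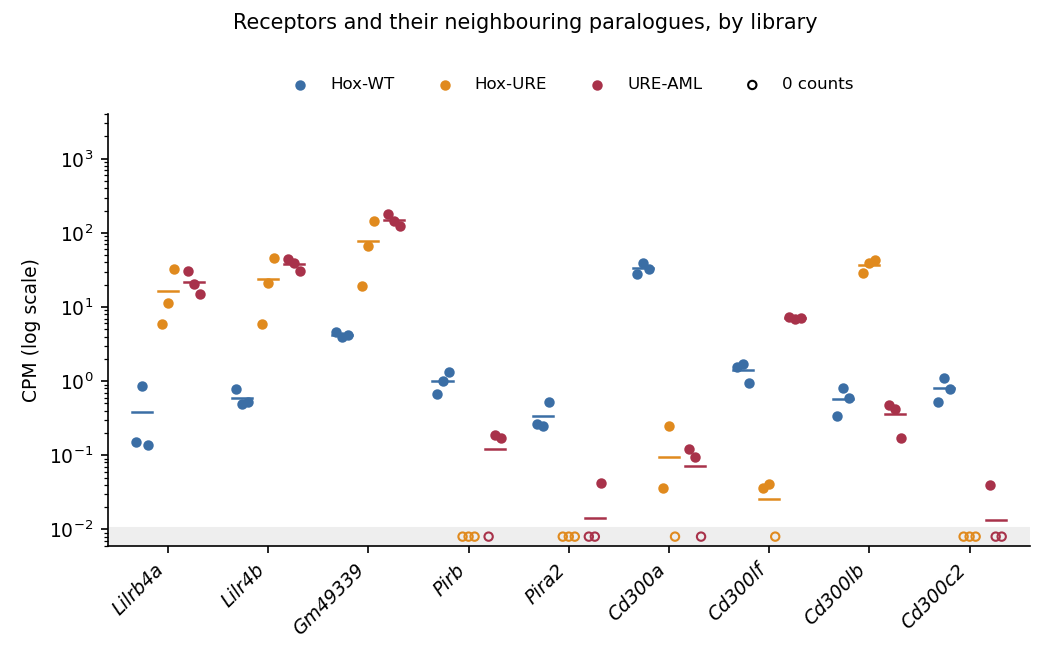
Levels of *Lilrb4a*, *Pirb*, *Cd300a* and *Cd300lf* with related genes in each library, in CPM on a log axis, drawn as in the plot of member levels. The 3 genes of the *Lilrb4a* locus are higher in both URE lines, *Pirb*, *Pira2*, *Cd300a* and *Cd300c2* have few or 0 counts in both, and *Cd300lb* is high in Hox-URE, at 28.8 to 43.6 CPM.

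Counted as single genes, the CD300 receptors went separate ways. *Cd300a* (ENSMUSG00000034652, chromosome 11, 114890041 to 114904654, plus strand) was at 28.1, 39.1 and 32.5 CPM in Hox-WT (33.2 ± 5.55, SD, n = 3), but at 1, 6 and 0 counts in Hox-URE and 3, 2 and 0 counts in URE-AML. Both URE lines were far below every Hox-WT library and overlapped with each other. The ratio of Hox-WT to Hox-URE was 339 (95% interval 164 to 843, edgeR adjusted p = 5.38e-07) and that of Hox-WT to URE-AML was 460 (95% interval 197 to 1419, edgeR adjusted p = 2.6e-07). Most of the Hox-URE counts came from replicate 2, and without it the fitted log2 fold change against Hox-WT was -10.32 in place of -8.33. Without URE-AML replicate 1 that of URE-AML was -9.37 in place of -8.75. URE-AML and Hox-URE were not called different (edgeR adjusted p = 0.76), with so few counts in both that a difference was not detectable at this depth.

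*Cd300lf* (ENSMUSG00000047798, chromosome 11, 115116214 to 115133992, minus strand) had the same order of lines as *Sirpa* when counted as a single gene. It stood at 1.57, 1.71 and 0.934 CPM in Hox-WT (1.41 ± 0.416, SD, n = 3), at 1, 1 and 0 counts in Hox-URE, and at 7.27, 6.80 and 7.08 CPM in URE-AML (7.05 ± 0.235, SD, n = 3). The lines did not overlap. Hox-WT exceeded Hox-URE by a ratio of 49.8 (95% interval 13.5 to 416, edgeR adjusted p = 1.55e-05), and URE-AML exceeded Hox-URE by a ratio of 251 (95% interval 69.2 to 2081, edgeR adjusted p = 4.76e-07). From Hox-WT to URE-AML it rose by 2.32 ± 0.30 on the log2 scale (SE, edgeR adjusted p = 8.23e-05). *Cd300lb*, an activating member of the cluster, was instead high in Hox-URE, with 791, 943 and 853 counts against 9, 23 and 17 in Hox-WT and 12, 9 and 4 in URE-AML, a log2 fold change of 5.98 ± 0.32 against Hox-WT (SE, edgeR adjusted p = 2.81e-07). With the other genes of the cluster added to each receptor, *Cd300lf* turned direction, rising by 3.36 from Hox-WT to Hox-URE (edgeR adjusted p = 1.39e-06) and falling by 2.32 from Hox-URE to URE-AML, and *Cd300a* was no longer called in Hox-URE against Hox-WT (0.11, edgeR adjusted p = 0.707) but fell by 5.83 from Hox-URE to URE-AML (edgeR adjusted p = 1.27e-07). That sum adds the *Cd300lb* counts of Hox-URE to each receptor, so it describes the cluster and not either receptor alone. Only 4.33% of the 31-base words of *Cd300lf* and 7.51% of those of *Cd300a* occurred in another gene. *Cd300c2*, another activating member, had 0 counts in Hox-URE, lower than Hox-WT by at least 6.28-fold (edgeR adjusted p = 0.000455).

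*Cd33* (ENSMUSG00000004609, chromosome 7, 43524216 to 43544428, minus strand) fell in both URE lines, less so in URE-AML. Its levels were 300, 361 and 336 CPM in Hox-WT (332 ± 31.1, SD, n = 3), 1.67, 1.57 and 0.511 in Hox-URE (1.25 ± 0.645, SD, n = 3) and 8.80, 7.32 and 8.19 in URE-AML (8.11 ± 0.743, SD, n = 3). The lines did not overlap, in the order Hox-WT, URE-AML, Hox-URE, and each step was called. The log2 fold change against Hox-WT was -7.99 ± 0.28 in Hox-URE (SE, edgeR adjusted p = 1.91e-08) and -5.36 ± 0.23 in URE-AML (SE, edgeR adjusted p = 3.25e-08). URE-AML was higher than Hox-URE by 2.64 ± 0.26 (SE, edgeR adjusted p = 1.55e-05). *Siglece* (ENSMUSG00000030474, chromosome 7, 43651070 to 43660161, minus strand), the gene of the sialic acid receptor Siglec-E, held 0, 2 and 3 counts in Hox-WT and 0 in all 6 libraries of the URE lines, so all lines were at or under the floor and no fold is given. Among monocyte and macrophage markers, 6 of 8 tested genes fell from Hox-WT to Hox-URE and 4 of 8 fell from Hox-WT to URE-AML, while their summed level was highest in Hox-URE, where *Ccr2* alone had a mean of 885 CPM. Their part in the *Cd33* and *Cd300a* results was not tested.

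**Figure D3:**
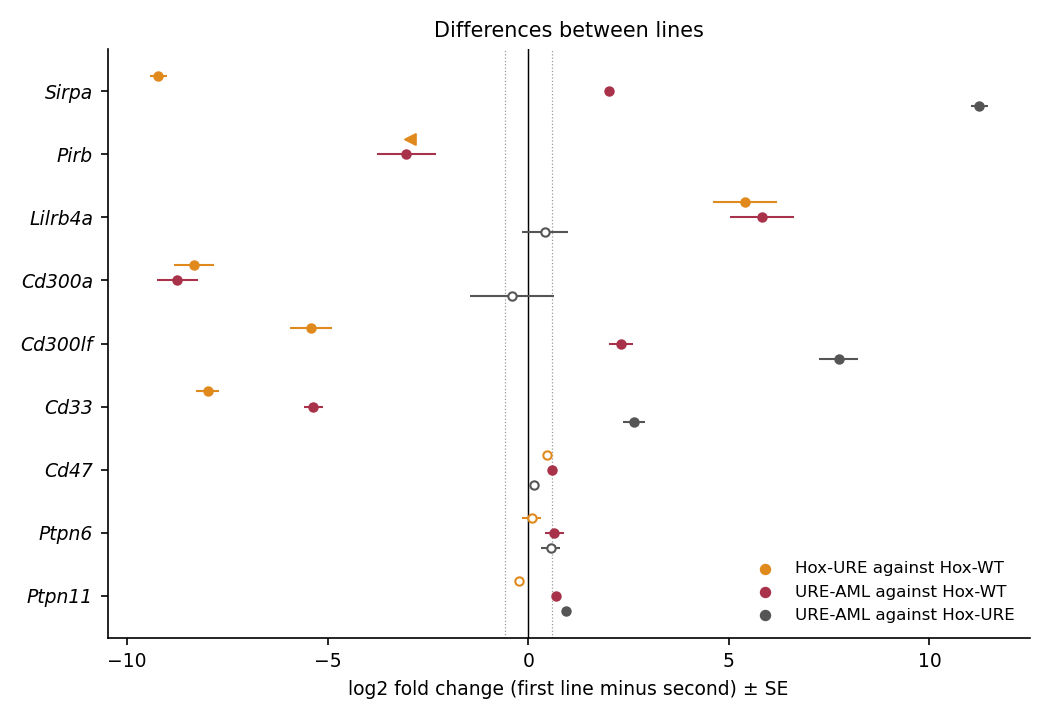
Log2 fold change of the 9 tested members in the 3 comparisons, with SE. Filled points were called, open points were not, and dotted lines mark 1.5-fold. The triangle is the bound for *Pirb* in Hox-URE, which had 0 counts there, and its value in URE-AML against Hox-URE is left out. *Sirpa* and *Cd300lf* lie on opposite sides of 0 in the 2 URE lines, at log2 fold changes of -9.23 and 2.02, and -5.42 and 2.32.

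Compared per length (TPM, the count per kilobase of the longest annotated transcript, scaled to the same total in every library), the make-up of the receptors differed between lines, and in the URE lines it depended on how reads of the *Lilrb4a* locus were assigned. With *Lilrb4a* as a single gene, in Hox-WT, *Cd33* made up 75.1% of the summed level of the 7 receptors (74.4 to 75.6% over libraries), *Sirpa* 14.7% and *Cd300a* 9.22%. In Hox-URE, *Lilrb4a* made up 90.3% (82.8 to 98.7%). In URE-AML, *Sirpa* made up 83.5% (80.3 to 87.5%), *Lilrb4a* 10.6%, *Cd300lf* 3.27% and *Cd33* 2.57%. The summed level ranged over 146 to 175 TPM (Hox-WT), 3.58 to 15.8 TPM (Hox-URE) and 99.9 to 120 TPM (URE-AML). With the locus (*Lilrb4a*, *Lilr4b* and *Gm49339*, an alternative added after seeing the data) in place of the single gene, it ranged over 152 to 179 TPM (Hox-WT), 25.9 to 178 TPM (Hox-URE) and 262 to 339 TPM (URE-AML), so that Hox-URE overlapped with Hox-WT. The locus then made up 3.21% in Hox-WT, where *Cd33* still led at 72.8%, and 98.9% in Hox-URE. In URE-AML it made up 65.7% (59.6 to 69.6%) and *Sirpa* 32.0% (28.3 to 38.0%), so *Sirpa* no longer led there. With *Lilrb4a* as a single gene again, in counts scaled to library size the sum was 414 ± 40.6, 18.0 ± 13.4 and 220 ± 20.5 CPM (SD, n = 3). These shares are descriptions and were not tested.

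**Figure D4:**
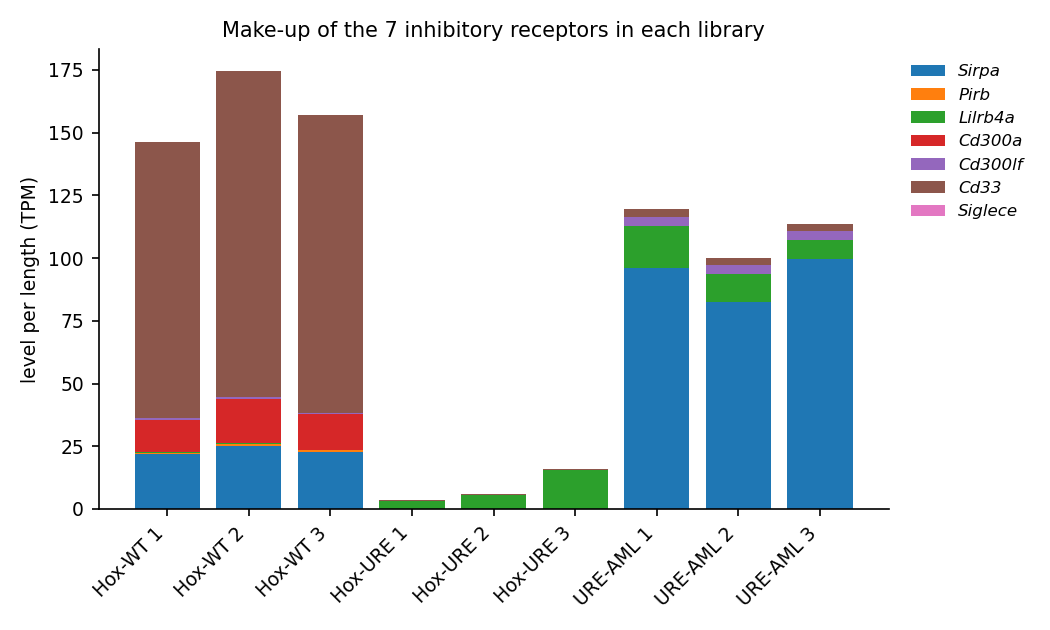
Level per length (TPM) of the 7 inhibitory receptors, stacked for each of the 9 libraries, with *Lilrb4a* as a single gene and its neighbours *Lilr4b* and *Gm49339* left out. *Cd33* fills most of each Hox-WT bar, *Lilrb4a* nearly all of the short Hox-URE bars and *Sirpa* most of each URE-AML bar, where the bars reach 99.9 to 120 TPM. With the whole locus the Hox-URE sums would be 25.9 to 178 TPM and *Sirpa* would hold 32.0% of the URE-AML sums.

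The phosphatases that dock on the motifs changed far less than the receptors. *Ptpn11* (SHP-2, ENSMUSG00000043733, chromosome 5, 121130533 to 121191397, minus strand) was at 99.3, 102 and 91.6 CPM in Hox-WT, 87.7, 87.9 and 72.8 in Hox-URE and 162, 171 and 142 in URE-AML. The URE-AML libraries were above all others and the Hox-URE libraries below all others. URE-AML stood 0.70 ± 0.10 above Hox-WT on the log2 scale (SE, edgeR adjusted p = 0.000236) and 0.93 ± 0.11 above Hox-URE (SE, edgeR adjusted p = 3.57e-05), both called, while Hox-URE against Hox-WT gave -0.23 ± 0.10 (SE, edgeR adjusted p = 0.0842). The first call was lost in a test against a fold change of 1.5 (edgeR glmTreat adjusted p = 0.136).

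*Ptpn6* (SHP-1, ENSMUSG00000004266, chromosome 6, 124720707 to 124738714, minus strand), the main phosphatase of ITIM receptors in blood cells, was at 128, 137 and 145 CPM in Hox-WT, 101, 162 and 172 in Hox-URE and 293, 161 and 190 in URE-AML. All URE-AML libraries were above those of Hox-WT, and Hox-URE overlapped with both. From Hox-WT to URE-AML it rose by 0.65 ± 0.24 on the log2 scale (SE, edgeR adjusted p = 0.0368). The value rested on URE-AML replicate 1, without which it was 0.36 (edgeR adjusted p = 0.167), and the call was also lost without Hox-WT replicate 1, 2 or 3 (edgeR adjusted p = 0.0698 to 0.101) and under glmTreat (edgeR adjusted p = 0.41). Hox-URE against Hox-WT gave 0.09 ± 0.24 (SE, edgeR adjusted p = 0.788). URE-AML against Hox-URE gave 0.57 ± 0.24 (SE, edgeR adjusted p = 0.0629), and was called without Hox-URE replicate 3 (0.70, edgeR adjusted p = 0.0439) or URE-AML replicate 2 (0.74, edgeR adjusted p = 0.0277). Per length, *Cd47*, *Ptpn6* and *Ptpn11* averaged 163, 122 and 27.0 TPM in Hox-WT.

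Kinases that phosphorylate or read tyrosine motifs were counted next. Of 9 tested, 0 rose and 5 fell from Hox-WT to Hox-URE, and 1 rose and 6 fell from Hox-WT to URE-AML, with median log2 fold changes of -1.01 (-1.39 without a gene that had 0 counts in Hox-WT and no usable bound) and -3.61. From Hox-URE to URE-AML 1 rose and 4 fell, with a median of -0.26. The shares of all tested genes that rose and fell were 21.3% and 15.9%, 23.0% and 20.2%, and 20.4% and 22.4% in these comparisons. *Syk*, the kinase that activating receptors use, fell by 5.39 on the log2 scale in Hox-URE and by 4.66 in URE-AML (SE 0.44 and 0.42, edgeR adjusted p = 5.22e-06 and 6.39e-06), the latter by 5.40 without URE-AML replicate 3. *Lyn*, the Src-family kinase best known for phosphorylating ITIMs, was not called in any comparison, at log2 fold changes of 0.42 ± 0.20, 0.16 ± 0.20 and -0.26 ± 0.20 (SE), but the first was called without Hox-URE replicate 1 (0.61, edgeR adjusted p = 0.00582). *Csk*, which restrains Src-family kinases, was not called either, with log2 fold changes of -0.06 to 0.04.

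Other phosphatases and adaptors of inhibitory signalling were mixed. Of 21 tested, 9 rose and 3 fell from Hox-WT to Hox-URE (against 21.3% and 15.9% of all tested genes). From Hox-WT to URE-AML 6 rose and 7 fell (against 23.0% and 20.2%). From Hox-URE to URE-AML 3 rose and 11 fell (against 20.4% and 22.4%). The median log2 fold changes were 0.35, 0.01 and -0.60. *Inpp5d*, the gene of SHIP-1, was higher in Hox-URE by 0.69 ± 0.09 (SE, edgeR adjusted p = 0.000169) and stood at 0.01 ± 0.09 in URE-AML (SE, edgeR adjusted p = 0.936). *Dok2*, an adaptor that dampens Ras signalling, rose by 2.44 ± 0.13 and 2.89 ± 0.13 in the URE lines (SE, edgeR adjusted p = 3.01e-07 and 4.58e-08). *Ptprc*, the gene of the receptor phosphatase CD45, which marks nearly all white blood cells, held 4053, 4753 and 4399 counts in Hox-WT, 0 in every Hox-URE library and 1, 0 and 1 in URE-AML. It was lower in Hox-URE by at least 1225-fold against Hox-WT (edgeR adjusted p = 1.17e-08), and the ratio of Hox-WT to URE-AML was 5457 (95% interval 1510 to 45070, edgeR adjusted p = 5.16e-09). Why counts of this gene were near 0 in lines labelled as hematopoietic was not tested.

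**Figure D5:**
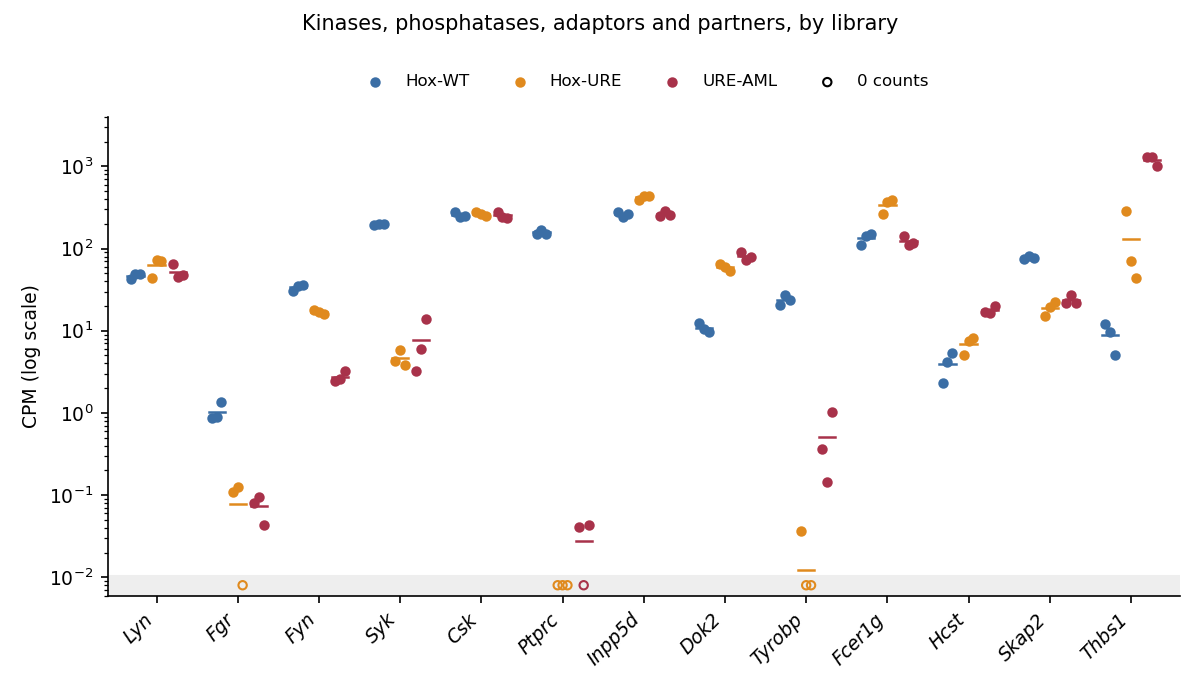
Levels of kinases, phosphatases, adaptors and partners of the receptors in each library, in CPM on a log axis, drawn as in the plot of member levels. *Lyn* and *Csk* stay within a narrow band and *Inpp5d* is somewhat higher in Hox-URE. *Syk* and *Ptprc* are lower in both URE lines, and *Thbs1* is highest in URE-AML, with a mean of 1209 CPM.

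Among 19 further receptors with inhibitory motifs, 12 were tested. From Hox-WT to Hox-URE 3 rose and 8 fell (against 21.3% and 15.9% of all tested genes). From Hox-WT to URE-AML also 3 rose and 8 fell (against 23.0% and 20.2%). From Hox-URE to URE-AML 5 rose and 3 fell (against 20.4% and 22.4%). The median log2 fold changes were -2.0, -2.09 and 0.56 (-1.77, -2.09 and 0.01 with genes at 0 counts in a line set at their bounds, or left out where no bound could be set). *Fcgr2b*, the inhibitory Fc receptor, held 1 count in each Hox-URE library, so that Hox-WT was higher by a ratio of 1604 (95% interval 548 to 7779, edgeR adjusted p = 3.16e-09), and in URE-AML it fell by 2.01 on the log2 scale (SE 0.12, edgeR adjusted p = 3.95e-07). *Lair1*, a collagen receptor, was lower in Hox-URE (-0.97 ± 0.25, SE, edgeR adjusted p = 0.00771) and higher in URE-AML (1.34 ± 0.24, SE, edgeR adjusted p = 0.000704), the same order of lines as *Sirpa* and *Cd300lf*. *Pecam1*, an adhesion receptor, was higher in URE-AML (2.19 ± 0.11, SE, edgeR adjusted p = 1.08e-07), and *Ceacam1* was higher in both URE lines (2.04 ± 0.32 and 2.05 ± 0.32, SE, edgeR adjusted p = 0.000401 and 0.000291). *Cd72*, best known from B cells, had 0 counts in URE-AML, lower than Hox-WT by at least 325-fold (edgeR adjusted p = 1.13e-06).

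The RefSeq promoter table used here (GRCm38.p6) matched 8 members, all but *Sirpa* and *Lilrb4a*. For *Cd33* and *Cd47* the RefSeq start lies well inside the gene interval given above, so it is not the outermost annotated start. PU.1 binds purine-rich sites with a GAGGAA core, so the 250 bases before each start were searched for GAGGAA on both strands and for the longer GAGGAAGT, which contains it. GAGGAA was found 3 times in *Pirb* and in *Siglece*, once in *Cd300a*, *Cd300lf*, *Cd33* and *Ptpn11*, and 0 times in *Cd47* and *Ptpn6*. Of 27025 RefSeq promoters, 6252 (23.1%) held GAGGAA and 660 (2.44%) held GAGGAAGT, which among the members occurred only in *Pirb*. A match in so short a window is a description and not a binding site. The promoters of the 4 receptors that were lower in Hox-URE and had an entry are printed 5′ to 3′ on the strand of the gene, with matches in capitals (TTCCTC is GAGGAA on the other strand).
*Pirb* (chr7:3720383-3720632, minus strand): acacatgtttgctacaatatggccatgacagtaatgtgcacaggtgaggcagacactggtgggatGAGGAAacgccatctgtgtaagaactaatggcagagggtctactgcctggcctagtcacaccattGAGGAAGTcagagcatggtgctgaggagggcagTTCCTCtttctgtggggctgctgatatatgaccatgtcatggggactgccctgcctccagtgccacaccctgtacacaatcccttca
*Cd300a* (chr11:114889791-114890040, plus strand): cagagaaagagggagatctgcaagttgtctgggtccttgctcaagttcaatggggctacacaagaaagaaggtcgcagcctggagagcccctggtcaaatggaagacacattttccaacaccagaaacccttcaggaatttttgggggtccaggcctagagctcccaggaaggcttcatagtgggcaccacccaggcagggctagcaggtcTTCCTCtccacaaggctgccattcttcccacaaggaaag
*Cd300lf* (chr11:115133993-115134242, minus strand): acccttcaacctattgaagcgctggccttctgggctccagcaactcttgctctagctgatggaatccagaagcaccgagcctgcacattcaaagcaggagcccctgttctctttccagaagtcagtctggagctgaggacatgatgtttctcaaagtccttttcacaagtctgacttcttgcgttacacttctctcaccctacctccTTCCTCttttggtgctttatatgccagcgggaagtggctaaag
*Cd33* (chr7:43533172-43533421, minus strand): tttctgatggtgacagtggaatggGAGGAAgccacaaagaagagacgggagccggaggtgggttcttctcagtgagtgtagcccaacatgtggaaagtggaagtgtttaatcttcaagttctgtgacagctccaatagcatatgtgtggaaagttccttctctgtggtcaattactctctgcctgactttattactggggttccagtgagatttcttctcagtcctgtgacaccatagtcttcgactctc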

How the data were processed

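Poly-A RNA of 3 lines, with 3 libraries each, was sequenced from stranded libraries. Per the labels' processing notes, the authors used Salmon and GRCm38; the values deposited are estimated counts for each gene, in whole numbers and without scaling to library size. The transcriptome release and any scaling for transcript length are not given in the sources used here. All columns were used, and lines and numbers came from the labels.

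Genes were kept by filterByExpr (minimum count 10), which left 13082 of 54347 genes and put aside 0.0499% of counts. TMM factors were 0.938 to 1.04. Counts were fitted with edgeR 4.0.16 (R 4.3.3), by quasi-likelihood over the 9 libraries together, with line as sole term, and tested with two-sided F tests and Benjamini-Hochberg adjustment over the tested genes. Intervals of count ratios are 95% exact binomial. Count ratios are given where a line held few counts, since fitted folds there depend on the prior count, and bounds use 3 counts per library. Of the identifiers, 54094 were found in GENCODE M21 and 253 were not. No library of a line repeated another (smallest chi-square per degree of freedom 18.1). Members, lists and markers were chosen with earlier results of these data known. Genes could be named if they were members, *Spi1*, *Hoxb8*, list genes called in at least 1 comparison, close paralogues of members, or in lists of up to 3 genes; *Csk*, *Lyn*, *Kit*, *Myb*, *Cd34*, *Ccr2* and *C1qa* are named beyond this rule, after their values were seen. Some list genes are not reported here by name. The code was tested on simulated data.

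Alternatives were other scalings, 2 other filters, only the 6 libraries compared, a replicate block, DESeq2 1.42.0, no fold threshold, glmTreat, paralogue sums and leaving out each library. Figures were drawn with matplotlib 3.10.9.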

Additional observations from a re-analysis of the deposited data

Results flagged for a closer look

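The 2 URE lines moved in opposite directions from the same Hox-WT libraries for 2 receptors. For *Sirpa* all 3 Hox-URE libraries were below and all 3 URE-AML libraries above Hox-WT, and URE-AML minus Hox-URE was 11.25 on the log2 scale. For *Cd300lf*, counted as a single gene, the order of the libraries was the same, and the difference was 7.74. These fitted values rest on 5 and 2 counts over the Hox-URE libraries. With the other genes of its cluster, such as *Cd300lb*, added to *Cd300lf*, its difference was -2.32. Since the genes were picked for their opposite directions, a difference between the URE lines follows from the choice and is no separate test. The cause was not tested.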

How the results depend on the processing

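Of 517 values of members under alternatives, 482 kept their direction and their side of the threshold, 21 lost and 6 gained a call, and 8 turned direction. *Sirpa*, *Cd33* and *Lilrb4a* against Hox-WT kept both under all alternatives run for them. Each line is 1 line, and depth limits what can be said of *Siglece*, of *Pirb* in the URE lines and of *Cd300a* between them.

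Requiring at least 10 counts in every library removes genes lost in a line, and of the members kept *Cd33*, *Cd47*, *Ptpn6* and *Ptpn11*. This left 0 members that rose and 1 that fell from Hox-WT to Hox-URE (1841 and 1359 of all genes). From Hox-WT to URE-AML 3 rose and 1 fell (1891 and 1711 genes), and from Hox-URE to URE-AML 2 rose (1668 genes rose, 1885 fell). With no fold threshold, 2 members rose and 5 fell from Hox-WT to Hox-URE, as did 3642 and 3294 genes. With glmTreat these were 1 and 5 members and 2032 and 1335 genes, and from Hox-WT to URE-AML 3 members rose and 3 fell, as did 2326 and 1961 genes. Leaving out 1 library gave 4 to 6 members higher in URE-AML against Hox-WT, with 4 without Hox-WT replicate 2 or 3. Summing members with their paralogues changed the results of *Cd300a* and *Cd300lf*, since *Cd300lb* is added to both. The log2 fold changes then were 0.11 for *Cd300a* and 3.36 for *Cd300lf* in Hox-URE against Hox-WT, and -2.32 for *Cd300lf* in URE-AML against Hox-URE. *Ptpn6* in Hox-URE against Hox-WT, never called, was -0.026 with library size only, and -0.0638 to 0.283 when 1 library was left out (below 0 without Hox-URE replicate 2 or 3). *Cd300a* in URE-AML against Hox-URE, not called in these settings, was -1.04 to 1.56 when 1 library was left out (above 0 without Hox-URE replicate 2 or URE-AML replicate 3); the cause was not tested. *Ptpn6* in URE-AML against Hox-URE was called with library size only (0.68, edgeR adjusted p = 0.0265). That scaling shifted the median of all genes by 0.11 (log2) in URE-AML against Hox-URE, where 3166 genes then rose and 2605 fell, and from Hox-WT to Hox-URE 2502 rose and 2547 fell.

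The labels do not say that the replicate numbers pair the samples. Same-numbered libraries had correlations of 0.001 to 0.204, over 0.1 in 2 of 9 pairs. In 16 of 18 cases, though, a library correlated best with its own number, so whether the numbers mark pairs is not settled. With the replicate block, *Ptpn6* in URE-AML against Hox-WT (0.65, edgeR adjusted p = 0.0589) and *Pirb* in URE-AML against Hox-URE (edgeR adjusted p = 0.0516) were not called, and no other member's call changed.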

Other observations

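Activating counterparts of the inhibitory receptors were also measured, and 11 of 21 in the table were tested. From Hox-WT to Hox-URE 2 rose and 5 fell (against 21.3% and 15.9% of all tested genes). From Hox-WT to URE-AML 5 rose and 2 fell (against 23.0% and 20.2%), and from Hox-URE to URE-AML 6 rose and 1 fell (against 20.4% and 22.4%). *Clec5a* and *Trem3*, receptors that signal through the adaptor DAP12, rose in URE-AML against Hox-WT by log2 fold changes of 4.83 ± 0.29 and 2.39 ± 0.24 (SE, edgeR adjusted p = 2.83e-07 and 1.46e-05). *Trem1*, another DAP12 receptor, rose by 2.01 ± 0.20 (SE, edgeR adjusted p = 1.36e-05). *Tyrobp*, the gene of DAP12 itself, held 543, 761 and 678 counts in Hox-WT, 1, 0 and 0 in Hox-URE and 9, 3 and 24 in URE-AML. Of the other ITAM and related adaptors, *Fcer1g* was higher in Hox-URE by 1.33 ± 0.17 (SE, edgeR adjusted p = 0.000127) and at -0.14 ± 0.17 in URE-AML, not called, and *Hcst* was higher in URE-AML by 2.18 ± 0.28 (SE, edgeR adjusted p = 9.41e-05), all against Hox-WT.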
